A study of Caenorhabditis elegans with 2 samples.

Results

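Divergent-promoter regions are stretches of chromatin listed with signal in immunoprecipitation of AHA-1. Their summit, the position of highest signal, lay close to the starts of protein-coding genes pointing away from each other. They were taken from the 3000 regions of highest signal in the list made from both replicates together, which held 30000 regions. That list is labelled as peaks and background, so a listed region is not by itself a site bound by AHA-1. The authors' thresholded list held 142 of the members described here. A region was counted when its summit fell into a window that opens 1000 bp before a start and closes 200 bp after it, for annotated starts of at least 2 protein-coding genes on opposite strands, and 427 of the 3000 did so. Another 1132 lay in the window of 1 gene only and serve as the comparison (single-gene regions), 37 lay near several genes on the same strand, and 1404 lay in no such window. The members were thus chosen by pooled signal and by position, so the values of signal, rank and distance below describe them and carry no test. The last 2 divergent-promoter regions inside the limit, at fbxa-13 and Y22D7AR.2 and at spd-1 and Y34D9A.3, had signals of 7.78 and 7.77. The first 2 beyond it, at clik-1 and T25F10.1 and at evl-18 and F34D10.4, both had 7.68.

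The regions come from chromatin immunoprecipitation sequencing of a fusion of AHA-1 to green fluorescent protein in whole first-stage (L1) larvae of Caenorhabditis elegans, with both sexes pooled. All animals were of strain OP124, which carries the unc-119(ed3) mutation on chromosome III and the integrated aha-1 transgene wgIs124. There were 2 biological replicates of this 1 strain and stage, and no second condition, so nothing below compares treatments. The promoter that drives the fusion is not given in the labels, and all cell types of the larva contribute to each value.

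AHA-1 corresponds to mammalian ARNT and pairs with several transcription factors of the bHLH-PAS family. With HIF-1, the hypoxia-inducible factor, such dimers are known to recognise the core word ACGTG, and with the aryl hydrocarbon receptor AHR-1 the core word GCGTG. The palindrome CACGTG, an E-box, contains ACGTG on both strands. Genes in head-to-head order share the sequence between their starts, which can hold the promoters of both. In C. elegans many annotated starts are positions where a spliced leader is joined to the messenger RNA, so that transcription itself begins farther upstream.

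The sequences below show how little DNA can separate such starts and where the core words fall in it. They are 3 of the 4 divergent-promoter regions of highest signal among those considered that had starts less than 300 bp apart, the summit between them and a core word in between. Of 56 such compact regions considered, 17 held a core word. Each stretch runs from the base after the minus-strand start to the base before the plus-strand start, 5′ to 3′ on the plus strand of the WBcel235 (ce11) reference, read from its RefSeq copy. Capitals mark GCGTG or ACGTG on either strand.
jmjd-4 and mev-1: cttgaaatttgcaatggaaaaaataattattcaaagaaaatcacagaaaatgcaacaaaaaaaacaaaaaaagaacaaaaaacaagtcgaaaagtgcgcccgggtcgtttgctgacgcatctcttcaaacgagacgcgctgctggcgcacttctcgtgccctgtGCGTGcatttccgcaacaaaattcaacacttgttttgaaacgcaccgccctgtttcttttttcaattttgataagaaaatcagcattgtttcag
T26A8.4 and pdtf-1: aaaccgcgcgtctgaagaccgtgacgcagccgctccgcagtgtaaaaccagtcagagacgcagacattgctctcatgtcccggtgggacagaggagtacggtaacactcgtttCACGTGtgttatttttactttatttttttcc
Y71H2AM.20 and cox-6B: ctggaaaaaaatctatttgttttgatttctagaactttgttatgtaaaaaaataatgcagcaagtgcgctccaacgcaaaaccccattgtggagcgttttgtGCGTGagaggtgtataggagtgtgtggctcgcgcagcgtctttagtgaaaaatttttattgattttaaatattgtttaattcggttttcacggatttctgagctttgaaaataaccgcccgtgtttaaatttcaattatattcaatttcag

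The first stretch, chrIII:10334019-10334276, separates jmjd-4 from mev-1, the gene of the cytochrome b subunit of succinate dehydrogenase, and its GCGTG lay 41 bp from the summit. The second, chrIV:8432894-8433037, separates T26A8.4 from pdtf-1 by 144 bp and holds the palindrome CACGTG 92 bp from its summit, outside the window used for counting words. The third, chrIII:2785949-2786201, separates Y71H2AM.20 from cox-6B, a cytochrome c oxidase subunit gene, and holds GCGTG 13 bp from the summit. At jmjd-4 and mev-1 the pooled signal was 39.2, with 24.9 in replicate 1 and 11.9 in replicate 2. At T26A8.4 and pdtf-1 it was 29.0, with 21.7 and 6.01, and at Y71H2AM.20 and cox-6B 27.3, with 15.6 and 10.6. The stretches before mev-1 and cox-6B end in the letters TTTCAG, the form of a splice acceptor.

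Those letters were common at the starts beside divergent-promoter regions. TTTCAG stood directly before 209 of the 854 starts counted, 1 on each strand for every region, or 24.5%, and the shorter AG before 46.3%. At single-gene regions the shares were 21.3% and 40.9%, and over the outermost starts of all 19973 protein-coding genes 12.3% and 27.6%. AG preceded both starts of 93 divergent-promoter regions and neither start of 125.

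The share of divergent-promoter regions fell with rank. Of the 530 strongest regions, which are also the regions the authors kept on their thresholded list, 142 were divergent, or 26.8% (95% exact interval 23.1 to 30.8%). The share was 20.6% at ranks 531 to 1000, 12.6% at ranks 1001 to 2000 and 6.20% at ranks 2001 to 3000. Beyond the members it was 4.09% at ranks 3001 to 10000 and 2.57% at ranks 10001 to 30000. The share of single-gene regions also fell, from 41.9% of the strongest 530 to 25.6% of the last 20000. In the 3000 strongest regions of replicate 1 alone 420 were divergent, and in those of replicate 2 alone 280. All intervals are Clopper-Pearson intervals over regions, and they cover counting of regions only, not the spread between larvae.

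**Figure D1:**
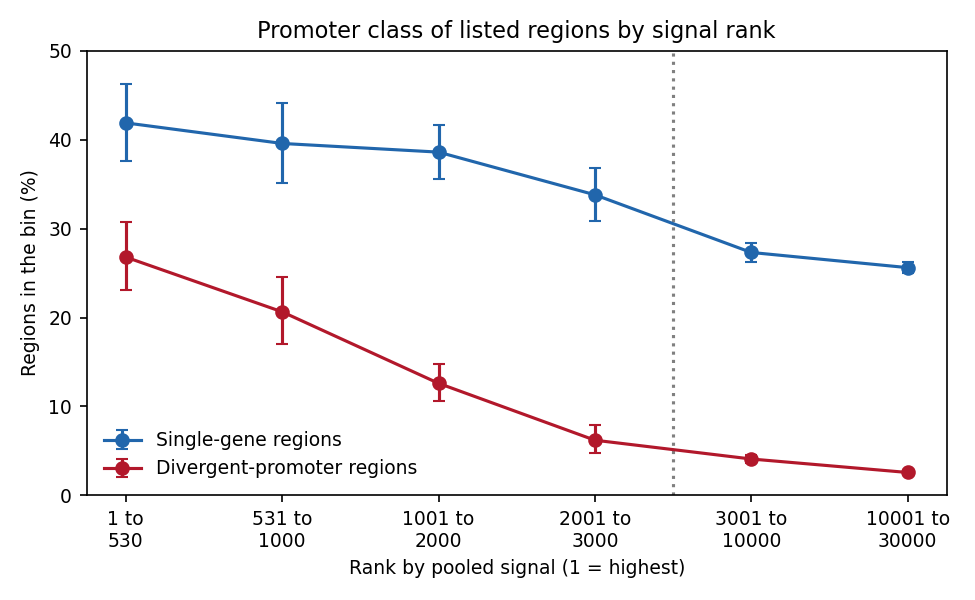
Percent of listed regions (y axis) in the divergent-promoter and single-gene classes, by bins of rank in pooled signal (x axis, uneven bins), with 95% exact intervals over regions as bars. The dotted line marks rank 3000, the limit for membership. The divergent share goes from 26.8% in the first bin to 6.20% in the last bin before the line and 2.57% in the last bin of all.

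Little sequence meets the position rule. Positions that would count as divergent made up 2.35 Mb, or 2.35% of the 6 chromosomes, and held 181 of the 3000 strongest regions per Mb. Windows of a single gene covered 23.6 Mb and held 48.0 per Mb, and sequence in no window held 19.0 per Mb. For regions on the thresholded list the densities were 60.3, 9.41 and 2.07 per Mb. By chromosome, divergent-promoter regions numbered 101 on I, 65 on II, 97 on III, 67 on IV, 79 on V and 18 on X. Chromosome III had the highest density, 265 per Mb of divergent sequence, and 45 of its 97 regions were thresholded. The X chromosome has little sequence of this kind, 0.723% of its length against 2.70% of the autosomes, and within it the density was 140 per Mb against 184. Single autosomes ran from 131 per Mb on V to 265 on III, so X, with 18 regions, lay within their range.

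The pooled signal of the 427 regions had a median of 13.8, with quartiles of 9.76 and 21.3 and a highest value of 89.3. The median of single-gene regions was 10.5. The thresholded list contained 142 of the divergent-promoter regions, 33.3%, against 17.7% of all 3000 regions and 19.6% of the single-gene regions. A region of replicate 1 overlapped 411 of the 427 by at least 1 bp, 96.3%, where the share over all 3000 was 91.6%. Replicate 2 overlapped 341, or 79.9%, against 71.6% over all 3000. Both replicates overlapped 325, or 76.1%, against 64.0% over all 3000 and 66.4% of single-gene regions. Of the rest, 86 were matched in replicate 1 alone, 16 in replicate 2 alone, and each of the 427 was matched in at least 1 of them.

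These replicate shares followed rank in both classes. At ranks 1 to 530 both replicates held 97.2% of divergent-promoter regions and 94.1% of single-gene regions, at ranks 531 to 1000 85.6% and 79.0%, at ranks 1001 to 2000 60.3% and 60.6%, and at ranks 2001 to 3000 45.2% and 47.9%. Beyond rank 1000, then, the divergent share was not the higher of the pair. Where both replicates listed a region, their summits lay a median of 37 bp apart, and 56 bp for single-gene regions. This distance was not split by rank, and the median rank was 853 for divergent-promoter and 1391 for single-gene regions. The replicate lists were matched region by region, and 14 members shared a replicate 1 region with another member.

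The strongest 20 divergent-promoter regions had pooled signals of 43.2 to 89.3, all were on the thresholded list, and none ranked below 172 in replicate 1 or below 129 in replicate 2. Signal values belong to the list they stand in and have no stated common scale, so a lower value in replicate 2 is not a lower level. Many of these regions lie beside genes of protein synthesis. The region between rpl-15, a large-subunit ribosomal protein gene, and K11H12.8 had the highest pooled signal, 89.3, with 53.4 in replicate 1 and 34.6 in replicate 2. That between K01G5.10 and tasp-1, named for a threonine aspartase, followed at 83.2, with 49.3 and 33.7. The region between iff-2, which encodes the translation factor eIF5A, and F54C9.14 had 82.7, with 54.1 and 28.5. At rpl-20 and Y17G9B.5 the pooled value was 76.2, with 60.4 and 14.7. These 4 ranked within the first 14 of the replicate 1 list, and 3 of them within the first 11 of replicate 2, where rpl-20 ranked 101.

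Other RNA-binding and translation genes stood in the same group. The region at drr-2, which encodes a protein related to the initiation factor eIF4H, and set-16, a histone methyltransferase gene, had 64.6. Those at larp-1, named for a La-related RNA-binding protein, and wip-1 and at nhl-2, a TRIM-NHL protein that acts with microRNAs, and tag-340 had 62.9 and 56.8. The region at ifet-1, the eIF4E transporter, and rps-1 had 47.8. Beside rps-20, rps-12, rps-19, rps-15 and rpl-12 the pooled signals were 54.1, 48.7, 45.7, 43.6 and 43.4. Their partners across the shared sequence were ekl-4, ska-3, hsr-9, F36A2.9 and lin-54, the last a DNA-binding member of the DREAM complex.

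Of the 20, the regions at hsp-60 and hsp-90 lie beside chaperone genes. The mitochondrial chaperonin gene hsp-60, opposite Y22D7AL.10, had a pooled signal of 59.8, with 42.1 in replicate 1 and 17.5 in replicate 2. The cytosolic hsp-90, opposite C47E8.4, had 51.4, with 36.0 and 13.3. The remaining regions of the 20 were at gpap-1 and scpr-1 (47.6), mif-4 and ipla-6 (47.4), F29B9.11 and the histone demethylase gene jmjd-1.2 with mrps-21 also in window (45.7), wve-1 and R06C1.4 (43.8), and hat-1 and M03C11.3 (43.2). Of the 20, 9 had GCGTG and 2 had ACGTG within 50 bp of the summit.

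**Figure D2:**
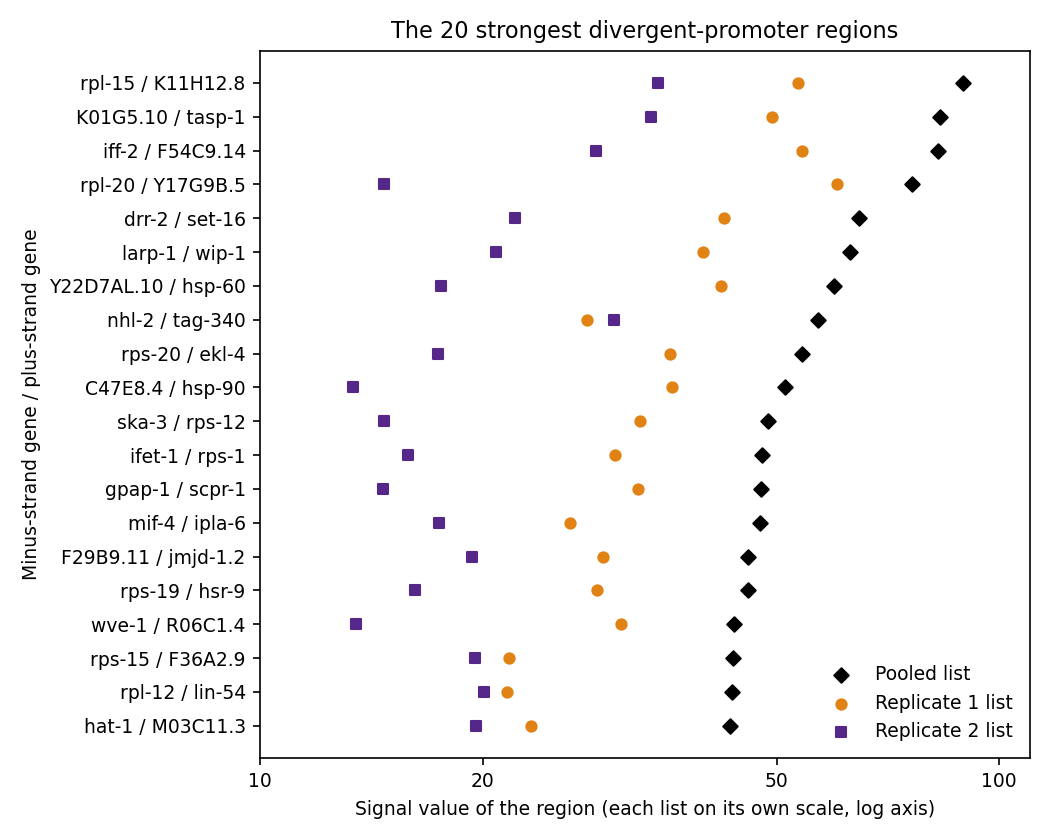
Signal of the 20 strongest divergent-promoter regions (x axis, log scale, arbitrary units of each list) in the pooled list and in the list of each replicate, 1 point per list, ordered by pooled signal, with the minus-strand gene named first. All 20 were found in both replicates. The replicate 2 point lies to the left of the replicate 1 point except at nhl-2 and tag-340, but the lists share no scale.

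Replicate ranks lay far apart at some named regions. Between mrps-7, a mitochondrial ribosomal protein gene, and Y57G11C.3 the region had 31.0 in replicate 1, rank 52, and 2.48 in replicate 2, rank 12568. Between aha-1 itself and C25A1.15 the pooled signal was 27.3, rank 255, with 24.7 in replicate 1, rank 120, and 3.20 in replicate 2, rank 7047. That region held GCGTG within 50 bp of its summit, 234 bp upstream of aha-1 and 90 bp upstream of C25A1.15. The strain carries an inserted aha-1 transgene, and reads from its copy and from the native locus cannot be told apart in these lists. The reverse order was seen between sqv-3 and vha-1, a vacuolar ATPase gene, with 4.45 in replicate 1, rank 5529, and 12.2 in replicate 2, rank 164.

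Most summits lay between the nearest opposite starts of their genes. The nearest opposite starts were a median of 498 bp apart, with quartiles of 311 and 741.5 bp, and 95 regions had starts less than 300 bp apart. In 384 regions, 89.9%, the summit lay between these nearest starts, and in 43 it lay past 1 of them, just inside a gene. The nearest starts crossed at 1 region only, at Y17G7B.20 and ash-2, by 6 bp. Overlap of whole genes was not counted. Genes with several annotated starts can overlap even so, as C47E8.4 and hsp-90 do. The nearer start was a median of 133 bp from the summit and the farther 353 bp. The window limits both distances. The plus-strand gene was the nearer in 216 regions and the minus-strand gene in 208, with 3 ties, and 217 summits were within 100 bp of the midpoint. Summits of single-gene regions lay a median of 270 bp upstream of their start, written as -270, and 90.0% were upstream.

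**Figure D3:**
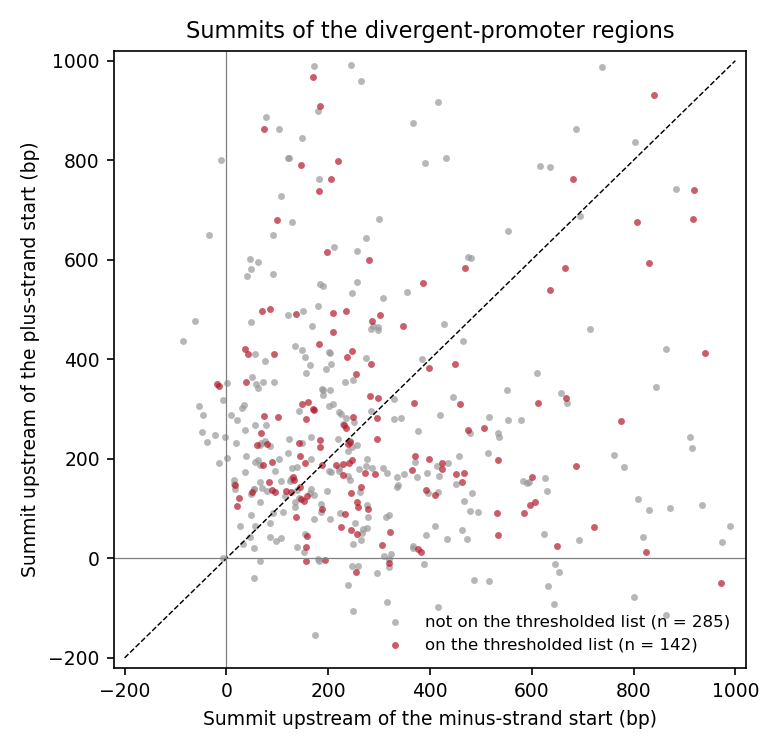
Each point is 1 of the 427 divergent-promoter regions, placed by the distance (bp) of its summit upstream of the minus-strand start (x axis) and of the plus-strand start (y axis), with values below 0 inside the gene. The 142 red points are on the thresholded list, the 285 grey points are not, and the dashed line marks equal distances. The cloud has similar numbers on either side of the dashed line, 208 nearer the minus-strand start and 216 nearer the plus-strand start.

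Replicate summits were also placed against the starts. A replicate region had to overlap the pooled region to be matched, so its summit lies near the pooled one by construction, and these counts only describe the match. Of the 325 regions listed in both, 323 had both replicate summits in a divergent position, and in 274, or 84.3%, both were nearer the same start. Among the 150 of these whose pooled summit was over 100 bp from the midpoint, 146 had both replicate summits nearer the same start. In total the regions touched 857 genes in 414 distinct pairs, and 33 regions had 3 genes in window. A second divergent-promoter region lay at 13 pairs, among them hsp-90 and C47E8.4 (signals of 51.4 and 14.5), rps-14 and rpl-36 (37.2 and 8.995) and gpap-1 and scpr-1 (47.6 and 12.2). At 7 of the 13 both pooled regions overlapped the same replicate 1 region, rps-14 and gpap-1 included, so these are not separate observations in that replicate.

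Most head-to-head pairs of the genome held none of the 3000 regions. The genome has 2463 neighbouring pairs on opposite strands with outermost starts up to 2000 bp apart, and 414 of them, 16.8%, held 1 of the 3000 regions between their starts. The share was 9.84% for pairs up to 250 bp apart, 24.5% from 251 to 500 bp, 20.1% from 501 to 750 bp, 15.8% from 751 to 1000 bp, 11.3% from 1001 to 1500 bp and 16.39% from 1501 to 2000 bp. Per Mb of sequence between the starts, the same spacing classes held 600.1, 665, 339, 189, 96.4 and 97.2 regions, so the closest pairs had the lowest share per pair and the second highest density. The share per pair on X was 16.09% and on the autosomes 16.9%. These shares count pairs and include summits that the start windows leave out at wide spacing.

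At the summits of divergent-promoter regions, GCGTG and the GA repeat GAGAGA were more frequent than 400 bp away, while ACGTG was not detectably so. Words were sought on both strands within 50 bp of each summit, and each summit was paired with 1 of its flanks in a two-sided exact McNemar test adjusted over 7 words. Flank shares are means over both flanks. GCGTG was present at 111 of 427 summits, 26.0%, and at 6.21% of flanks. It was at the summit alone in 107 regions and at the flank alone in 22 (adjusted p 9.29e-14). GAGAGA, a word of GAGA-type repeats, was at 14.99% of summits and 5.74% of flanks (59 against 19 regions, adjusted p 2.25e-05). ACGTG was at 14.1% and 11.2% (50 against 42 regions, adjusted p 0.543), and CACGTG at 1.87% and 1.99% (8 against 10, adjusted p 0.815). Single-gene summits, not tested against their flanks, also had more GCGTG (17.5% against 5.61%) and GAGAGA (20.1% against 6.01%). There ACGTG (16.8% against 9.85%) and CACGTG (5.30% against 2.08%) were higher at summits too.

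The other words gave smaller differences. E-boxes of the form CANNTG other than CACGTG were at 37.5% of summits and 27.9% of flanks (110 against 73 regions, adjusted p 0.0161). TATAAA, the TATA box word, was at 5.85% of summits and 9.72% of flanks (22 against 44, adjusted p 0.0161). Neither of these calls held in every alternative setting: in replicate 2 alone the ratio of summit-only to flank-only regions was 1.25 for these E-boxes (adjusted p 0.374) and 1 for TATAAA, which also missed the threshold in replicate 1 alone (ratio 0.588, adjusted p 0.106). GATAA, a word read by GATA factors, was at 15.9% and 21.2% (55 against 68, adjusted p 0.391). Summit windows averaged 44.5% G+C (SD 9.30, n = 427 regions) and the flanks 37.8% and 36.9%. The starts lay a median of 133 bp (nearer) and 353 bp (farther) from the summit, so many flanks lay past a start. The parts of base composition and of position against the starts in the word shares were not tested.

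**Figure D4:**
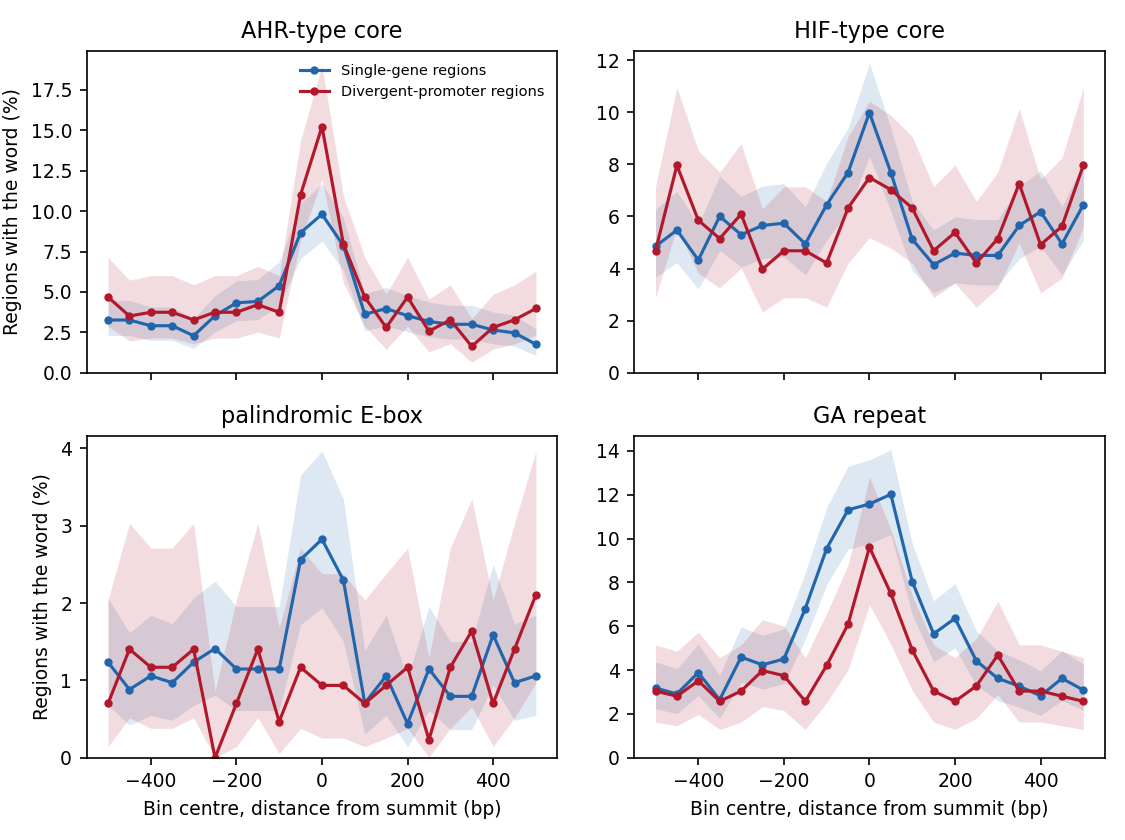
Percent of regions (y axis) with each of 4 words (AHR-type core GCGTG, HIF-type core ACGTG, palindromic E-box CACGTG and GA repeat GAGAGA) in 50 bp bins around the summit (x axis, bin centre in bp), for 427 divergent-promoter and 1132 single-gene regions, with 95% exact intervals as shading. The y axes differ between panels. In the summit bin GCGTG was in 15.2% of divergent-promoter regions and 9.81% of single-gene regions.

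Head-to-head pairs with no region in the whole list of 30000 give the level of these words in such sequence without listed signal. At the midpoints of 1138 such pairs, with starts 100 to 1200 bp apart, GCGTG was in 8.88%, GAGAGA in 7.38%, ACGTG in 12.6% and TATAAA in 15.03%. Over all 30000 listed summits GCGTG was in 6.83% and GAGAGA in 7.78%. The empty midpoints averaged 34.0% G+C.

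Against single-gene regions, divergent-promoter regions had GCGTG more often and CACGTG and GAGAGA less often, but the first of these depended on how deep the list was read. GCGTG was at 26.0% of divergent and 17.5% of single-gene summits (odds ratio 1.66, two-sided Fisher's exact test adjusted over 7 words, adjusted p 0.00188). Among the 1000 strongest regions the odds ratio was 0.879, and on the thresholded list it was 0.606 (adjusted p 0.672 and 0.158). In the 3000 strongest regions of replicate 1 alone and of replicate 2 alone it was 1.23 and 1.27 (adjusted p 0.567 and 0.633). By rank the share in divergent-promoter regions was 23.2%, 25.8%, 31.7% and 21.0% at ranks 1 to 530, 531 to 1000, 1001 to 2000 and 2001 to 3000. In single-gene regions it fell from 33.3% through 18.8% and 15.03% to 9.17%. Over ranks 531 to 3000, a split chosen after seeing the data, the odds ratio was 2.39. The change of the odds ratio with rank was not tested. G+C in the same 4 bins was 48.5%, 45.5%, 41.9% and 38.9% for divergent-promoter and 49.8%, 45.8%, 41.9% and 38.0% for single-gene summits.

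**Figure D5:**
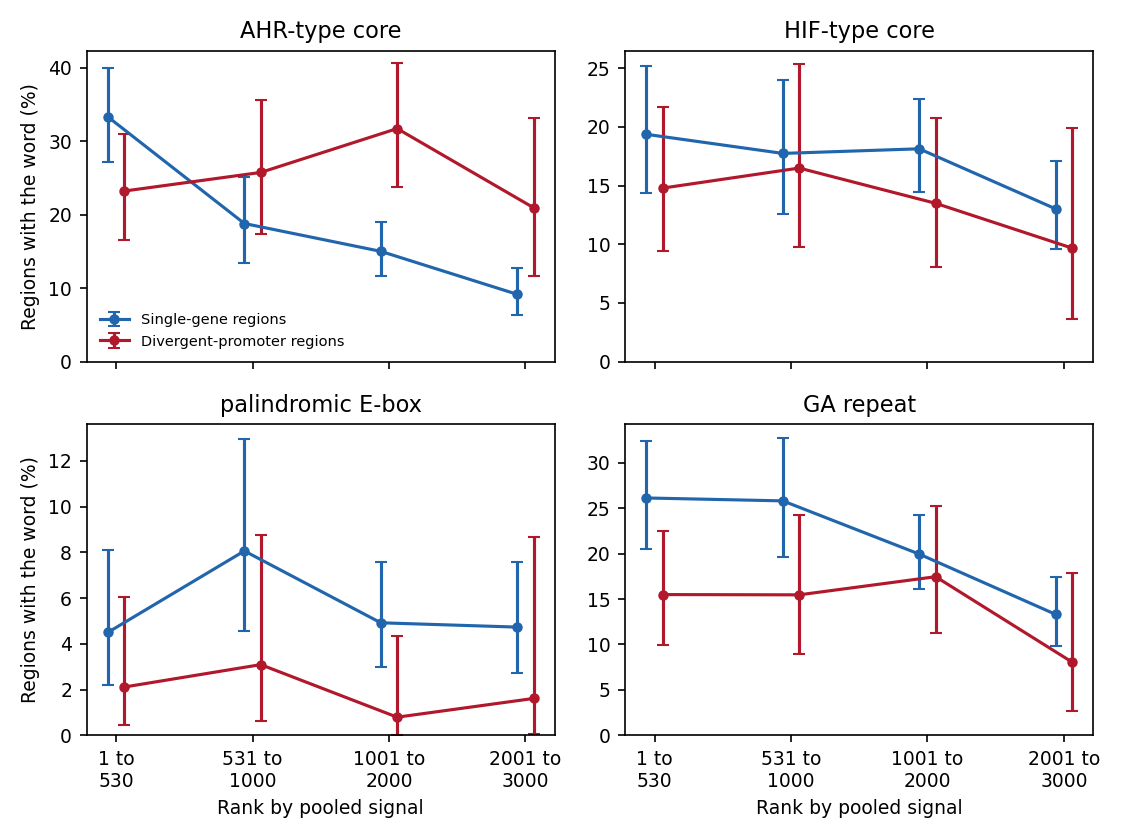
Percent of regions (y axis) with each of 4 words within 50 bp of the summit, by bins of rank in pooled signal (x axis), for divergent-promoter and single-gene regions, with 95% exact intervals over regions. The y axes differ between panels. For the AHR-type core GCGTG the lines cross, with single-gene regions higher at ranks 1 to 530 (33.3% against 23.2%) and lower at ranks 2001 to 3000 (9.17% against 21.0%).

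CACGTG was at 8 divergent summits, 1.87%, and at 60 single-gene summits, 5.30% (odds ratio 0.341, adjusted p 0.00729). The odds ratio was below 1 in each alternative run, but the adjusted p was above 0.05 with the narrower window, on the shorter lists and at G+C of 40 to 50%. In the lists of replicate 1 and replicate 2 alone the odds ratio was 0.730 and 0.626 (adjusted p 0.591 and 0.633). The 8 were the regions at gpap-1 and scpr-1, ndk-1 and F25H2.6, snt-2 and rps-29, Y59E9AL.36 and nbet-1, F25H9.6 and F25H9.7, trr-1 and C47D12.2, E02H1.1 and tag-124, and R04E5.9 and cnnm-2. GAGAGA was at 14.99% of divergent and 20.1% of single-gene summits (odds ratio 0.699, adjusted p 0.0465). That call was lost under several settings, including replicate 1 alone (odds ratio 0.730, adjusted p 0.348) and replicate 2 alone (0.802, adjusted p 0.633). ACGTG was at 14.1% against 16.8% (adjusted p 0.273), GATAA at 15.9% against 19.2% (0.249), other E-boxes at 37.5% against 34.2% (0.273) and TATAAA at 5.85% against 7.07% (0.429). At least 1 of the core words was at 160 divergent-promoter summits, 37.5%, where 100 had GCGTG only, 49 ACGTG only and 11 both. The other 267 had neither. For single-gene regions the share with a core word was 31.4%.

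Genes of protein synthesis, folding, splicing and respiration stood beside many divergent-promoter regions. A gene on at least 1 of 15 lists was in the window of 124 regions, 29.0%, and of 99 single-gene regions, 8.75%. These counts are descriptions: a divergent-promoter region reaches at least 2 genes, and the lists differ in how many of their genes lie head to head. Over all protein-coding genes 29.5% had a promoter window that overlapped that of an opposite-strand gene. The share was 65.4% for ribosomal protein genes, 57.6% for chaperones, 72.7% for proteasome subunits and 17.1% for nuclear hormone receptors, and it covered 24 of 32 splicing factor genes. Regions of highest signal also lay at listed genes in other positions. For translation factor and respiratory genes, 44.4% and 45.8% of genes in other positions had one. Of their head-to-head genes 39.1% and 39.0% were at a divergent-promoter region. Counting any region of highest signal, as in other positions, the head-to-head shares were 39.1% and 43.9%. For the lists below, the share in head-to-head order also counts divergent-promoter regions only, unless stated. The share in other positions counts any region of highest signal. For chaperone and splicing factor genes the head-to-head share was the higher. These differences were not tested.

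Ribosomal protein genes led the lists. They were in the window of 36 divergent-promoter regions, 8.43%, and of 15 single-gene regions, 1.33%. Of the 36, 20 were thresholded and the median signal was 20.3, against 13.8 over all 427. Among the 53 ribosomal protein genes in head-to-head order, 38, or 71.7%, were at a divergent-promoter region, and over all head-to-head genes the share was 14.5%. Of the 28 ribosomal protein genes in other positions, 17 had a region among the 3000, 60.7%, against 6.82% of all genes in other positions. In 3 pairs both genes encode ribosomal proteins. The region at rps-14 and rpl-36 had 37.2 (31.0 and 5.41 in the replicates), that at rpl-39 and rps-30 had 21.1 (17.5 and 3.30), and that at rps-10 and rpl-24.1 had 17.5 (9.59 and 8.21).

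Other genes of protein synthesis were at fewer regions than the ribosomal protein genes. Translation factors were at 9 divergent-promoter and 8 single-gene regions, with shares of 39.1% in head-to-head order and 44.4% in other positions. Besides iff-2, the elongation factor genes eef-1A.1, opposite the clamp-loader gene rfc-4, and eef-1B.1, opposite the aconitase gene aco-2, had pooled signals of 39.5 and 30.2. Mitochondrial ribosomal protein genes were at 9 and 6 regions, with shares of 33.3% in head-to-head order and 17.5% in other positions. Aminoacyl-tRNA synthetase genes, which charge tRNAs, were at 2 and 2, led by ears-2 with uncp-18 (14.5). Of the synthetase genes in head-to-head order 13.3% were at a divergent-promoter region, against 14.5% of all head-to-head genes. Secretory pathway genes were at 6 and 4. In head-to-head order 36.8% of these genes were at a divergent-promoter region and 47.4% had any region of highest signal, against 27.3% in other positions. The strongest was the pair of sec-61.B, a translocon subunit, and trap-3, a translocon-associated protein, at 42.8 (30.1 and 11.3 in the replicates).

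Genes that fold and degrade proteins include the chaperone and proteasome lists. Chaperone genes were at 18 divergent-promoter regions, 10 of them thresholded, and at 4 single-gene regions. In head-to-head order 50% of these genes were at a divergent-promoter region and 52.9% had any region of highest signal, against 12% in other positions. Besides hsp-60 and hsp-90, the J-domain gene dnj-13, opposite F54D5.9, had 38.1 (21.1 and 16.21). The small heat-shock genes hsp-16.2 and hsp-16.41, a known divergent pair, had 19.9 (9.88 and 5.02), with the summit 137 and 84 bp upstream of their starts. Proteasome genes were at 10 and 3 regions, with shares of 41.7% in head-to-head order and 22.2% in other positions. Of the 10, 1 was thresholded, and their median signal of 11.5 was below the 13.8 of all 427, while that of the chaperone regions was 19.9. The first of them was rpn-3, opposite the chaperone gene hsp-110, at 34.5 (22.2 and 11.5), and next came pbs-1 and rpn-9 at 18.3 and 15.1.

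Respiratory chain and ATP synthase genes were at 16 divergent-promoter regions, 7 of them thresholded, and at 14 single-gene regions. In head-to-head order 39.0% of these genes were at a divergent-promoter region and 43.9% had any region of highest signal, against 45.8% in other positions. The ATP synthase gene atp-1, opposite mcrs-1, had 43.2 (29.3 and 12.4), with the summit 4 bp inside atp-1. Vacuolar ATPase genes were at 3 and 2 regions, with vha-8 opposite C17H12.2 at 21.5. Their shares were 37.5% in head-to-head order and 16.7% in other positions. Splicing factor genes were at 12 and 4, with shares of 58.3% in head-to-head order and 37.5% in other positions. The SR protein genes rsp-2 and rsp-1 formed a pair at 20.3 (9.46 and 10.1), and snr-3, an Sm protein gene, formed one with rsp-5 at 14.1 (7.79 and 5.88).

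Histone, nuclear receptor, collagen, lectin and hypoxia genes were near few of the members. Of all head-to-head genes 14.5% were at a divergent-promoter region. The share was 10.6% for core histone, 4.35% for nuclear hormone receptor, 6.52% for collagen and 3.61% for C-type lectin genes in that order. Core histone genes, nearly all of them in head-to-head order (91.7%), were at 4 divergent-promoter and 4 single-gene regions. The histone pairs were his-67 and his-68 (19.0), his-35 and his-41 (11.6) and his-31 and his-32 (8.92). Nuclear hormone receptor genes were at 2 divergent-promoter regions, nhr-47 with dnj-19 (27.4) and nhr-142 with F44E7.9 (26.8), and at 22 single-gene regions. Collagen genes were at 3 and 5 regions, with col-38 lying opposite rpl-5 (29.5). C-type lectin genes were at 2 and 2, among them the pair clec-167 and clec-168 (8.21). Of 15 hypoxia genes, which include HIF-1 pathway members and targets and aha-1, aha-1 alone was at a divergent-promoter region, and 5 were at single-gene regions. Only 2 of the 15 lie in head-to-head order, and aha-1 is 1 of these 2.

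Non-coding genes were also in window at some regions, and the classes were not tested against each other here. A small nucleolar RNA gene was near 15 divergent-promoter regions, 3.51%, and 3.18% of single-gene regions. For tRNA genes the shares were 0.937% and 1.33%, and for microRNA genes 0.468% and 0.707%. A piRNA gene was near 4 divergent-promoter regions, 0.937%, and 34 single-gene regions, 3.00%. For small nuclear RNA genes the shares were 0.234% and 0.883%, for long intergenic RNA genes 0.234% and 0.795%, and for pseudogenes 0 and 0.883%.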

How the data were processed

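ChIP-seq signal of the AHA-1 fusion was analysed in 2 replicates that form 1 group. Per the file headers and labels, the authors deposited relaxed region lists for each replicate and for both pooled, made against a control, and a list thresholded by irreproducible discovery rate. The signal value of each region is the authors' deposited value, without a stated scale. The −log10 q-value column deposited by the authors was not used for ranking. Aligner, caller, threshold and read depth are not given in the sources used here, so precision in reads is unknown, and the control was not analysed here. Fragments were 150 to 350 bp per the labels.

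Summits of the ce11 lists were compared with starts of Ensembl release 115 (WBcel235, every annotated transcript start) and with its genome sequence. A replicate match was an overlap of at least 1 bp. Words were sought on both strands in 101 bp windows centred on the summit, and flanks were centred 400 bp away, with 1 flank per region drawn by a seeded choice. Two-sided Fisher's exact and exact McNemar tests (Python 3.11.15, scipy 1.17.1) were adjusted by Benjamini-Hochberg over 7 words with a threshold of 0.05, and the counting was checked on simulated data. Regions, not larvae, were counted, and neighbouring regions are not fully independent. Gene lists were made from symbol prefixes, so family members under other symbols were missed. The prefix emb of the planned secretory pathway list and most sf prefixes of the planned splicing list were dropped because they name unrelated genes. The gene aha-1 was added to the hypoxia list. Named genes are those of the 20 strongest members, leading members and same-list pairs of each list, the limits of membership, the printed stretches and the members with CACGTG, the last named after their values were seen. The sequence of another compact stretch is not reported here. Members and lists were chosen with earlier results of these data known. Alternatives covered starts, window, list depth, each replicate alone, summit position, word window, flank distance and overlap. Those on autosomes, ranks 531 to 3000, summits upstream of every start and G+C of 40 to 50% were added after seeing the data.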

Additional observations from a re-analysis of the deposited data

How the results depend on the processing

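The number of divergent-promoter regions was 239 among the 1000 strongest (23.9%) and 142 on the thresholded list (26.8%). It was 280 to 420 in the 3000 strongest of either replicate alone, or 9.33 to 14.0%. The share was 10.1% with a window of 500 and 100 bp and 12.8% with summits between the starts only. Members matched in replicate 1 were 93.7% when the overlap had to cover 50% of both regions and 91.3% when summits had to lie within 100 bp. In replicate 2 they were 75.6% and 72.6%. The higher summit than flank shares of GCGTG and GAGAGA kept their direction and stayed past the threshold in each alternative run.

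Against single-gene regions, the odds ratio of GCGTG was 0.879 in the 1000 strongest, 0.606 on the thresholded list, 1.29 with the narrow window, 1.33 with words within 100 bp, 1.54 at G+C of 40 to 50% and 1.23 to 1.27 in either replicate alone, where it no longer passed. The odds ratio of CACGTG missed the threshold at 0.401 (narrow window), 0.395 (1000 strongest), 0.458 (thresholded), 0.263 (G+C of 40 to 50%) and 0.626 to 0.730 (either replicate). That of GAGAGA did so at 0.720 (outermost starts), 0.518 (thresholded), 0.691 (summit between the starts), 0.785 (words within 25 bp), 0.722 (autosomes), 0.752 (ranks 531 to 3000) and 0.730 to 0.802 (either replicate). Words with no call changed side for other E-boxes at 0.954 (1000 strongest), 0.900 (thresholded) and 0.962 (without replicate 2), for ACGTG at 1.11 (without replicate 2, against 0.987 without replicate 1), and for TATAAA at 1.12 (words within 100 bp) and 1.27 (G+C of 40 to 50%).

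Against flanks, the ratio of summit-only to flank-only regions for TATAAA missed the threshold at 0.561 (outermost starts), 0.552 (narrow window), 0.838 (words within 100 bp), 0.585 (flanks 600 bp away), 0.556 (autosomes) and 0.588 to 1 (either replicate). For other E-boxes it did so at 1.37 (1000 strongest), 1.23 (thresholded), 1.31 (words within 100 bp), 1.33 (flanks 600 bp away) and 1.25 (without replicate 1), while at 1.55 without replicate 2 it still passed. GATAA passed it at 0.538 (1000 strongest) and 0.639 (flanks 600 bp away). CACGTG, on few regions, changed side at 1.20 (narrow window), 1.20 (1000 strongest), 3 (thresholded), 1.17 (autosomes) and 1.75 (without replicate 1), and stayed below 1 at 0.846 without replicate 2. For all of these the cause was not tested. With 1 group, no paired comparison of groups arises, and the unknown read depth limits what can be said of weak regions.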
